A study of Mus musculus with 6 samples.

Results

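Haem, the iron-holding ring of haemoglobin, is built by a chain of 8 enzymatic steps. The enzymes described here are Alas2, Alad, Uros, Urod, Cpox, Ppox and Fech, and the enzyme of the third step was not analysed here. The 7 genes were taken with every array probe that the platform annotation names after them, which gave 16 of the 45281 probes. There were 3 groups of ICR mice, an outbred stock, all 28 days old and all sampled as whole spleen 24 h after 1 subcutaneous injection in 200 µL of saline. One group received saline only, and the others received cadmium chloride at 5 or at 10 µmol per kg body weight. Each group was measured on 2 Illumina bead arrays. Group sizes of 7 to 8 animals are stated in the labels, but not how many animals contributed to an array. The p-values therefore reflect array-to-array spread alone, and that spread may be technical.

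The pathway opens in the mitochondrion, where glycine is joined to succinyl-CoA, continues in the cytosol, where porphyrin rings are closed and trimmed, and returns to the mitochondrion for the final oxidations and the insertion of iron. Red cell precursors run it at the highest rate of any cell in order to fill haemoglobin. The mouse spleen holds such precursors in its red pulp throughout life. GATA1, which binds GATA motifs, and KLF1, which binds CACCC motifs, are the erythroid transcription factors best known for switching these genes on.

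Promoter windows of 300 bases, from 250 before to 50 after an annotated start, were taken from the RefSeq table used here (GRCm38.p6), in which 6 of the 7 genes matched, with 8 windows. Those of 4 genes are shown to let the region before the start be read with and without a GATA motif. The letters searched were AGATAA or AGATAG, as well as TGATAA or else TGATAG, on both strands, and matches are in capitals. At least 1 match was held by 3 of the 8 windows, which belong to Alas2, Uros and Cpox, and by 29.8% of all 32851 windows in the table, so nothing is read from the count. The Alas2 window (chrX:150547167-150547466, plus strand) had 1 match, 86 bases before the start. The Cpox window (chr16:58669958-58670257, plus strand) had 3, of which 2 shared a base. Of the 2 starts annotated for Uros, the one farther along the gene (chr7:133702451-133702750, minus strand) had 2. The Ppox window (chr1:171281137-171281436, minus strand), shown for contrast, had none. For the CACCC motif the looser pattern CCNCNCCC was searched. It was found in 7 of the 8 windows, at least 1 for each of the 6 genes, and in 49.5% of all windows. Only matches in the Alas2 window held the letters CACCC themselves, read on either strand, and the matches of the other genes did not. Nothing is read from this count either. No match to the pattern overlapped a GATA match. A match describes these letters only.
Alas2: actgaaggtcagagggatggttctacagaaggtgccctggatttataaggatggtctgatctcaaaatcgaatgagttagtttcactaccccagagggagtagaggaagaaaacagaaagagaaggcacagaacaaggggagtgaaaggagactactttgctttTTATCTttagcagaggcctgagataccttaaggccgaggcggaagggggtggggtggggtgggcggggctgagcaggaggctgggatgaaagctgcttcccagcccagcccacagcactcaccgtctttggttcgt
Cpox: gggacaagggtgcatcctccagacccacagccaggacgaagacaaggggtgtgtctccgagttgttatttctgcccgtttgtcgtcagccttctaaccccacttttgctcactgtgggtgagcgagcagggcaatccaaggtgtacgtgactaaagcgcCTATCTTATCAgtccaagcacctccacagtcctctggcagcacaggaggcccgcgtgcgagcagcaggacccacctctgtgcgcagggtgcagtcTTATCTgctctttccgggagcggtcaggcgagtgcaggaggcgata
Uros: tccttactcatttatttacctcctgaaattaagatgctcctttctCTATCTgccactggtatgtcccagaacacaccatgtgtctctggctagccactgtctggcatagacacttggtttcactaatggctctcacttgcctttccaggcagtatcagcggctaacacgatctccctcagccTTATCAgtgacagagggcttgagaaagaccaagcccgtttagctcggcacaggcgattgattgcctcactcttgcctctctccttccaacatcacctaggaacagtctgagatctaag
Ppox: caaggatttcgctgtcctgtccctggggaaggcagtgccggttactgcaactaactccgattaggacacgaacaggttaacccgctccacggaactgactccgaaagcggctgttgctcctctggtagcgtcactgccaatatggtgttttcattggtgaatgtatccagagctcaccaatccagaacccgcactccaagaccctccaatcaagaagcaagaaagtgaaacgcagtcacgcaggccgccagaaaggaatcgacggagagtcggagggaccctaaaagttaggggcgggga

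Between 16265 and 18561 probes were detected per array, taking detection as a detection p-value under 0.05. The tissue label was checked against defining markers. All 7 measured macrophage markers and 4 of 5 B cell markers were detected on all 6 arrays, as were 16 of 19 genes of globin and the red cell membrane. Genes of the exocrine pancreas, which adjoins the spleen, set the arrays apart. The 22 measured acinar markers averaged log2 4.82 and 12.99 in saline, 12.57 and 11.66 at 5 µmol/kg, and 5.04 and 12.39 at 10 µmol/kg. Detection followed the same split, with 7 and 10 of the 22 detected on the 2 dim arrays and all 22 on each of the 4 others. Both arrays at 5 µmol/kg thus carried the signal, but only array 2 of saline and array 2 of 10 µmol/kg did, and values from these 4 alone are given where they bear on a result.

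No enzyme passed the test in any comparison, and across the array 0 of the 13559 genes and unnamed probes (0%) passed at an adjusted p under 0.05 in limma's moderated test for either dose against saline or for the doses against each other. The count at an unadjusted p under 0.05 was 1257, 221 and 130 in that order. Of the 7 enzymes, Fech and Cpox stood above saline at 5 µmol/kg, by 1.60 and 1.48 on the log2 scale, with unadjusted p-values under 0.05. The 5 others differed by between −0.28 and 0.32. At 10 µmol/kg only Fech had an unadjusted p under 0.05 among the 7, with a difference of 0.97. Log2 signals below include an offset of 16, which understates differences of dim probes. In a bulk sample of spleen, fewer cells of a type and less RNA per cell cannot be told apart.

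**Figure D1:**
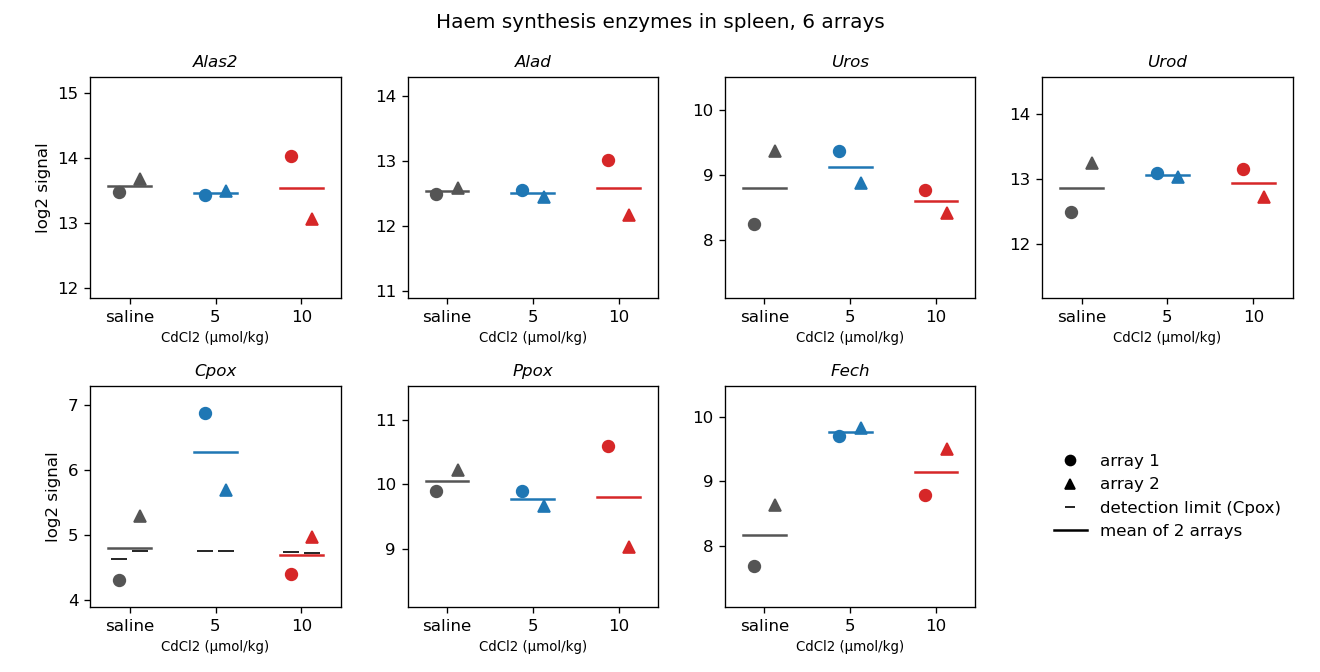
Log2 signal of the probe that stands for each enzyme, by dose of cadmium chloride in µmol/kg, with circles for array 1, triangles for array 2 a bar for the mean of the 2 arrays of a group and, for Cpox, a short dash for the detection limit of each array. Both arrays at 5 µmol/kg lie above both saline arrays for Fech and Cpox, while Alas2, Alad and Ppox spread most between the 2 arrays at 10 µmol/kg.

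Alas2 makes aminolevulinate, the committed and rate-limiting step in red cells. Its single probe read signals of 11346 and 13037 on the saline arrays, 11049 and 11537 at 5 µmol/kg and 16631 and 8536 at 10 µmol/kg. The highest and the lowest array were thus both at 10 µmol/kg, and the groups overlapped. Against saline, Alas2 differed on the log2 scale by −0.11 ± 0.35 (SE) at 5 µmol/kg (95% interval −0.93 to 0.72, unadjusted p = 0.766, adjusted p = 0.924 in limma's moderated test) and −0.03 ± 0.35 at 10 µmol/kg (−0.86 to 0.80, adjusted p = 1.0). These intervals leave room for a change of up to 1.65-fold upward at 5 µmol/kg and 1.74-fold at 10 µmol/kg. They also leave room for a fall to 0.524 and 0.553 of the saline level. Alas1, which runs the same step in other tissues and is not among the 7 enzymes, read signals of 561 and 597 in saline, 429 and 547 at 5 µmol/kg and 614 and 679 at 10 µmol/kg. Both of its arrays at 5 µmol/kg were below both saline arrays and both at 10 µmol/kg above them, with log2 differences from saline of −0.25 ± 0.24 and 0.15 ± 0.24 (adjusted p = 0.713 and 1.0 in limma's moderated test).

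Alad, the zinc enzyme that condenses aminolevulinate to porphobilinogen, had 1 probe. It read signals of 5786 and 6126 in saline, 6029 and 5589 at 5 µmol/kg and 8264 and 4612 at 10 µmol/kg. Here too the arrays at 10 µmol/kg bracketed the other 4. Its log2 differences from saline were −0.04 ± 0.32 at 5 µmol/kg (−0.80 to 0.72) and 0.05 ± 0.32 at 10 µmol/kg (−0.71 to 0.81), with adjusted p = 0.976 and 1.0 in limma's moderated test.

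Uros closes the linear tetrapyrrole into the ring that all later steps use. The probe that stands for it, the brighter of 2 that passed the detection filter, read signals of 288 and 642 in saline, 643 and 455 at 5 µmol/kg and 422 and 324 at 10 µmol/kg. Its log2 difference was 0.32 ± 0.41 at 5 µmol/kg (−0.66 to 1.30, adjusted p = 0.789) and −0.21 ± 0.41 at 10 µmol/kg (−1.19 to 0.77, adjusted p = 1.0). Both arrays at 10 µmol/kg lay below both at 5 µmol/kg, by −0.53 ± 0.41 (−1.51 to 0.45, adjusted p = 0.981). The saline arrays were 1.11 apart on the log2 scale, more than any of these differences. Without saline array 1 the difference at 5 µmol/kg was −0.24, and without saline array 2 it was 0.87.

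Urod, which trims the side chains of the ring in the cytosol, had 1 probe. It read signals of 5707 and 9698 in saline, 8720 and 8315 at 5 µmol/kg and 9110 and 6697 at 10 µmol/kg. Saline array 1 was the lowest of the 6 and saline array 2 the highest, so all groups overlapped. The log2 difference was 0.19 ± 0.32 at 5 µmol/kg (−0.58 to 0.97) and 0.07 ± 0.32 at 10 µmol/kg (−0.71 to 0.85), with adjusted p = 0.840 and 1.0 in limma's moderated test. Without saline array 1 these were −0.19 and −0.31, and without saline array 2 they were 0.58 and 0.45.

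Cpox, which works between the mitochondrial membranes and turns coproporphyrinogen into protoporphyrinogen, was dim. Of its 4 probes 1 was detected, and it read signals of −4.25 and 23.6 in saline, 102 and 36.2 at 5 µmol/kg and 0.310 and 15.6 at 10 µmol/kg. Detection was limited to the 4 arrays with acinar signal, and the probe was not detected on array 1 of saline or of 10 µmol/kg. On the log2 scale the arrays at 5 µmol/kg were 6.88 and 5.70, above all 4 others, which ran from 4.31 to 5.29. The difference from saline was 1.48 ± 0.50 (0.29 to 2.67, unadjusted p = 0.0219, adjusted p = 0.525 in limma's moderated test), and 10 µmol/kg differed from 5 µmol/kg by −1.60 ± 0.50 (−2.79 to −0.41, unadjusted p = 0.0161, adjusted p = 0.981). Between 10 µmol/kg and saline it was −0.11 ± 0.50 (−1.30 to 1.08). With the acinar level as a covariate the difference between 5 µmol/kg and saline was 1.13 ± 0.39, and among the 4 arrays with acinar signal alone 0.99 ± 0.39. The 2 arrays at 5 µmol/kg were 1.18 apart, and leaving out array 1 of that dose gave 0.89 while leaving out array 2 gave 2.07. The unadjusted p was 0.147 without array 1 of that dose and 0.113 without saline array 1.

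Ppox, the inner-membrane enzyme that oxidises protoporphyrinogen, gave different answers by probe. The brighter probe, which stands for the gene, read signals of 937 and 1180 in saline, 937 and 795 at 5 µmol/kg and 1525 and 511 at 10 µmol/kg. As for Alas2 and Alad, the arrays at 10 µmol/kg were the highest and the lowest of the 6. Its log2 difference was −0.28 ± 0.49 at 5 µmol/kg (−1.45 to 0.89) and −0.25 ± 0.49 at 10 µmol/kg (−1.41 to 0.92), with adjusted p = 0.848 and 1.0 in limma's moderated test. Among the 4 arrays with acinar signal the difference at 10 µmol/kg was −1.18 ± 0.32 (unadjusted p = 0.00247, adjusted p = 0.0739 in limma's moderated test), which sets array 2 of that dose against saline array 2 in a fit where 306 genes passed. Uros in the same fit differed by −0.95 ± 0.34 (adjusted p = 0.185) and Alas2 by −0.61 ± 0.32 (adjusted p = 0.375). Between array 1 of 10 µmol/kg and saline array 1, which lack the signal, the differences were of opposite sign, at 0.69 for Ppox, 0.53 for Uros and 0.55 for Alas2.

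Fech inserts ferrous iron into protoporphyrin at the inner mitochondrial membrane and carries an iron-sulphur cluster. Its brightest probe read signals of 193 and 382 in saline, 817 and 895 at 5 µmol/kg and 427 and 705 at 10 µmol/kg. Both arrays at each dose were above both saline arrays, and both at 5 µmol/kg were above both at 10 µmol/kg. The log2 difference from saline was 1.60 ± 0.39 at 5 µmol/kg (0.67 to 2.52, or 3.03-fold, unadjusted p = 0.00499, adjusted p = 0.525 in limma's moderated test). The difference at 10 µmol/kg was 0.97 ± 0.39 (0.05 to 1.90, or 1.96-fold, unadjusted p = 0.0422, adjusted p = 1.0). The doses differed by −0.62 ± 0.39 (−1.55 to 0.30, adjusted p = 0.981), which did not pass. Within each group of which only 1 array carried acinar signal, Fech was higher on that array, by 0.93 in saline and by 0.70 at 10 µmol/kg. Between the arrays that lacked it, Fech was 1.09 higher at 10 µmol/kg than in saline, and between the arrays numbered 2, which carried it, 0.86 higher. With the acinar level as a covariate the differences were 1.26 ± 0.23 at 5 µmol/kg and 0.99 ± 0.21 at 10 µmol/kg. Among the 4 arrays with acinar signal Fech passed at 5 µmol/kg (1.13 ± 0.27, adjusted p = 0.0495 in limma's moderated test), in a fit with 1 saline array and with the spread taken from the pair at 5 µmol/kg, where 287 genes passed in all. Over the other alternatives the adjusted p for Fech at this dose ran from 0.279 to 0.998.

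**Figure D2:**
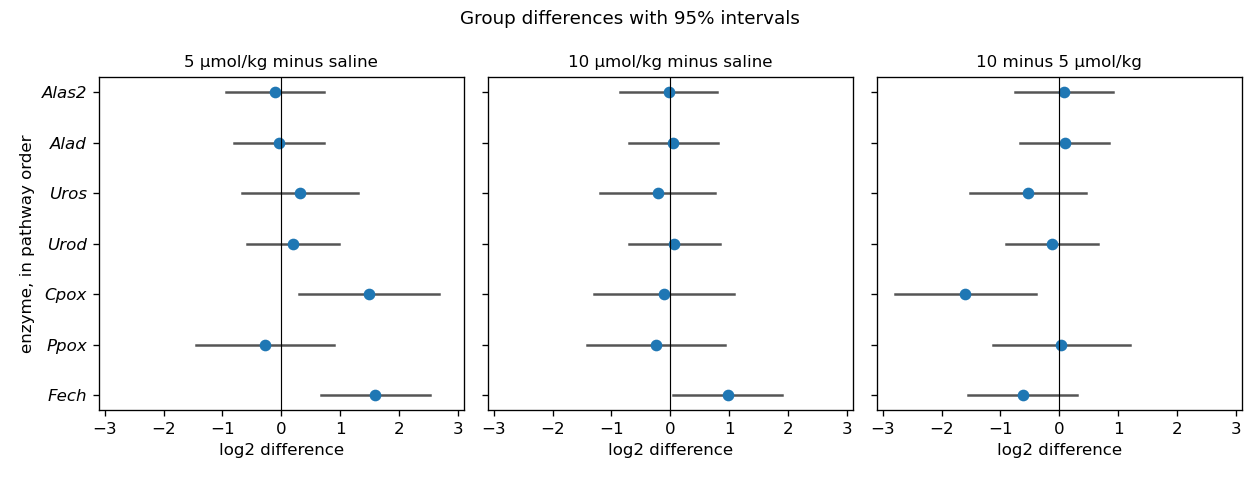
Log2 difference of each enzyme, as the mean of the first group minus the mean of the second, with its 95% interval from limma, for 5 µmol/kg against saline, 10 µmol/kg against saline and 10 against 5 µmol/kg. The intervals of Fech and Cpox lie above 0 at 5 µmol/kg, those of the other 5 enzymes cross 0 there, and none of the adjusted p-values was under 0.05.

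At 5 µmol/kg 2 of the 7 enzymes had an unadjusted p under 0.05, both higher, where 9.27% of all genes and probes did, 4.58% higher and 4.69% lower. The groups did not overlap for the same 2 enzymes, both higher, and for 0 in the lower direction, against 21.8% higher and 25.2% lower among all genes and probes. There were 4 enzymes above saline and 3 below, with a median log2 difference of 0.19, while 48.7% of all genes and probes were above saline and their median was −0.01. At 10 µmol/kg 1 of the 7, Fech, had an unadjusted p under 0.05, on the higher side, against 1.63% of all, 0.996% higher and 0.634% lower. Fech alone among the 7 did not overlap with saline, where 11% of all genes and probes were higher and 11.5% lower without overlap, and 3 of the 7 were above saline, against 46.9% of all. The median over the enzymes was −0.03, against −0.02 over all. It depended on the arrays, at −0.37 without array 1 and 0.45 without array 2 of that dose and −0.53 among the 4 arrays with acinar signal. The median at 5 µmol/kg ran from −0.19 without saline array 1 to 0.58 without saline array 2. Between the doses 1 of the 7, Cpox, had an unadjusted p under 0.05, on the lower side, against 0.959% of all, 0.487% higher and 0.472% lower. Uros, Cpox and Fech were lower at 10 than at 5 µmol/kg without overlap, against 15.7% of all genes and probes lower and 15.2% higher. Of the 7, 3 were above the lower dose, against 50.8% of all, and the median over the enzymes was −0.12, against 0.01 over all. Both doses were compared with the same saline arrays.

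**Figure D3:**
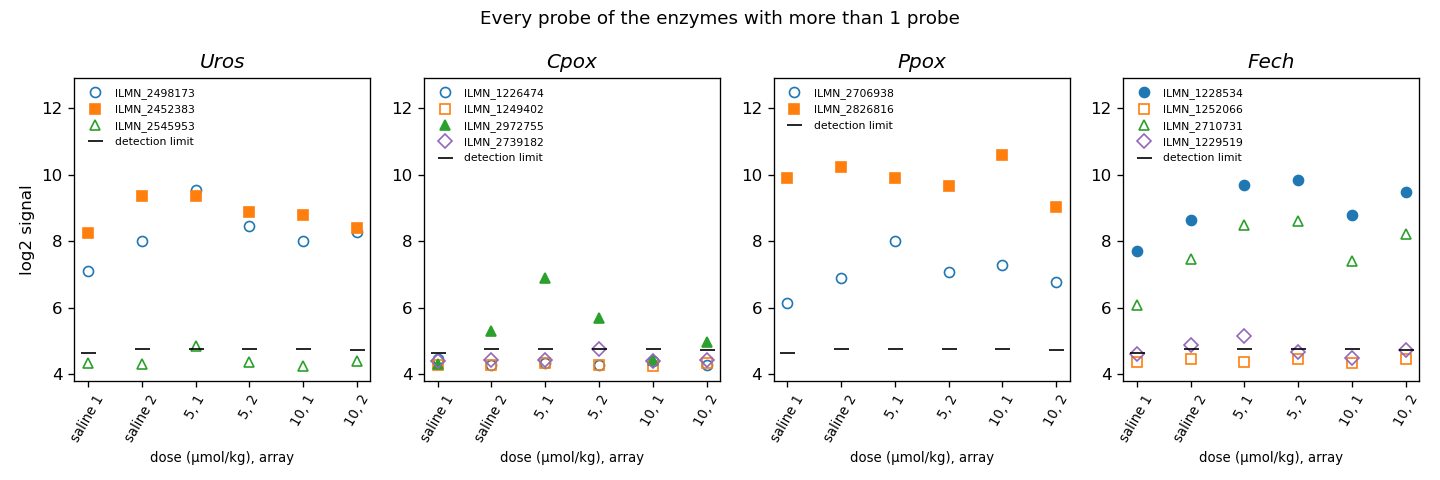
Log2 signal of every probe of the 4 enzymes with more than 1 probe, on each array, with the detection limit of the array as a dash and a filled symbol for the probe that stands for the gene. The 2 bright Fech probes run alongside each other, while the dimmer Uros and Ppox probes peak on array 1 at 5 µmol/kg and the brighter Ppox probe peaks on array 1 at 10 µmol/kg.

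Of the 16 probes 11 passed the filter, which asked for detection on at least 2 arrays. The 5 that did not were 3 of Cpox, 1 of Uros and 1 of Fech. Tested probe by probe, 5 of the 11 had an unadjusted p under 0.05 at 5 µmol/kg, all higher, where 9.99% of the 18960 probes did, and 0 passed after adjustment (0% of all). They belonged to Fech, Uros, Cpox and Ppox, and the probes of 1 gene are not independent. The second Fech probe, ILMN_2710731, read signals of 51.5 and 162 in saline, 342 and 371 at 5 µmol/kg and 154 and 283 at 10 µmol/kg. It ordered the 6 arrays almost as the first did (Pearson's r = 0.993 over the 6 arrays, a description), with a log2 difference of 1.77 ± 0.49 at 5 µmol/kg (unadjusted p = 0.00938, adjusted p = 0.492 in limma's moderated test) and 1.05 ± 0.49 at 10 µmol/kg. Another Fech probe, ILMN_1229519, was detected on only 2 arrays and differed by 0.16 ± 0.27 at 5 µmol/kg.

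The dimmer Uros probe, ILMN_2498173, read signals of 121 and 241 in saline, 721 and 334 at 5 µmol/kg and 242 and 293 at 10 µmol/kg, so all 4 cadmium arrays were above both saline arrays, though array 1 at 10 µmol/kg (242.2) barely exceeded saline array 2 (240.9). Its log2 difference was 1.44 ± 0.45 at 5 µmol/kg (unadjusted p = 0.0154, adjusted p = 0.492 in limma's moderated test) and 0.59 ± 0.45 at 10 µmol/kg. The brighter Uros probe showed 0.32 and −0.21 for the same differences. The dimmer Ppox probe, ILMN_2706938, read signals of 55.4 and 103 in saline, 242 and 119 at 5 µmol/kg and 140 and 93.3 at 10 µmol/kg. It was 1.02 ± 0.41 above saline at 5 µmol/kg (unadjusted p = 0.0446, adjusted p = 0.492 in limma's moderated test), where the brighter one was −0.28 ± 0.49. The 2 Ppox probes had r = 0.212 over the 6 arrays, and the 2 Uros probes had r = 0.671. For Uros and Ppox the size of the difference therefore depends on the probe, as does its sign for Ppox at both doses and for Uros at 10 µmol/kg. At 10 µmol/kg against saline 1 of the 11 probes had an unadjusted p under 0.05 (1.6% of all probes), and between the doses 1 did, lower (1.03% of all).

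The enzymes did not share 1 pattern across the arrays. Alas2, Alad and Ppox followed each other, with r = 0.968 for Alas2 and Alad, 0.965 for Alas2 and Ppox and 0.950 for Alad and Ppox over the 6 arrays, which share processing and differ in acinar signal. Each of these 3, Ppox by its brighter probe, was highest on array 1 and lowest on array 2 at 10 µmol/kg, with log2 gaps of 0.96, 0.84 and 1.55 between the 2. The dimmer Ppox probe had r = 0.212 with the brighter one. That dimmer probe was highest on array 1 at 5 µmol/kg and lowest on saline array 1. Uros and Urod had r = 0.873, and both were lowest on saline array 1. Cpox and Fech had r = 0.715, and Fech had r = −0.319 with Alas2, −0.278 with Alad and −0.414 with Ppox. The first enzyme of the pathway and the last were thus highest on different arrays, Alas2 on array 1 at 10 µmol/kg and Fech on array 2 at 5 µmol/kg. Among 10816 other named genes, those most like the mean standardised level of the 7 enzymes were Ormdl3 (r = 0.997), Arhgap23 (0.996), the flap endonuclease Fen1 (0.988), the tubulin Tubb5 (0.983) and Nrip3 (0.981) over the 6 arrays. There were 188 genes with r above 0.9, or 1.74% of them. That mean ranged from −0.85 on array 2 at 10 µmol/kg to 0.57 on array 1 of the same dose, and it was −0.83 on saline array 1. Taken singly, a choice made after values were seen, Alas2 was most like Stk11 (r = 0.991) and Fech most like Btd (r = 0.998).

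**Figure D4:**
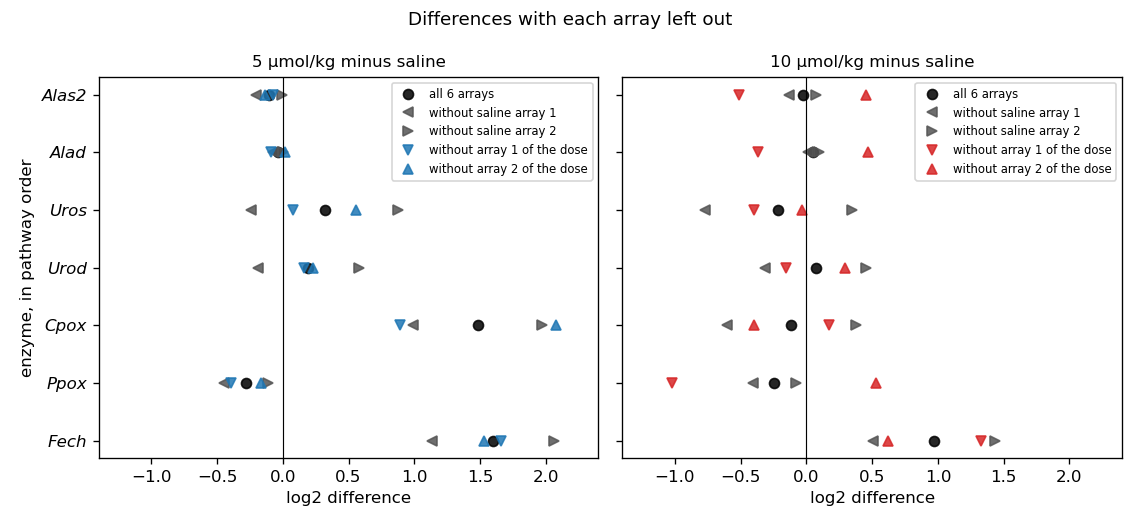
Log2 difference of each enzyme from saline at 5 and at 10 µmol/kg with all 6 arrays (black circles) and with 1 array left out (triangles). Fech stays above 0 at both doses and Cpox at 5 µmol/kg, between 0.89 and 2.07, whereas each of the other 5 enzymes changes sign at 1 or both doses, and Cpox does so at 10 µmol/kg.

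Leaving out 1 array at a time, the Fech difference ran from 1.13 to 2.06 at 5 µmol/kg and from 0.51 to 1.44 at 10 µmol/kg, in each case lowest without saline array 1 and highest without saline array 2. At the higher dose its unadjusted p was 0.226 without saline array 1 and 0.203 without array 2 of that dose. Saline array 1 was the lowest of the 6 for Fech, Uros and Urod. It was also the lowest for Cpox, at log2 4.31, though Cpox was undetected there and on array 1 at 10 µmol/kg. With arrays of 10 µmol/kg left out, the result at that dose for Alas2 was −0.51 without array 1 and 0.45 without array 2, and for Ppox it was −1.02 and 0.53. The direction of these 2 enzymes at 10 µmol/kg therefore rests on which array is kept.

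Other genes that serve the pathway were read from lists. Of 10 measured genes of haem and porphyrin transport, 3 had an unadjusted p under 0.05 at 5 µmol/kg, all higher, 0 at 10 µmol/kg, and 2 between the doses, both lower at 10 µmol/kg. Among all genes and probes 9.27%, 1.63% and 0.959% did. The 10 genes had medians of 0.07, −0.06 and −0.16. At 5 µmol/kg 7 of them were above saline and 3 below, with differences from −1.57 to 1.25. Tmem14c, which in mouse red cell precursors is needed for the porphyrinogen intermediate to enter the mitochondrion, read log2 9.46 and 10.76 in saline, 11.78 and 10.93 at 5 µmol/kg and 10.17 and 9.96 at 10 µmol/kg. By this brightest probe Tmem14c differed by 1.25 ± 0.48 at 5 µmol/kg and by −1.29 ± 0.48 between the doses (adjusted p = 0.525 and 0.981 in limma's moderated test). Its other probes, ILMN_2849680 and ILMN_2435206, differed by less at 5 µmol/kg, by 0.69 ± 0.51 and 0.70 ± 0.47 (unadjusted p = 0.219 and 0.183 in limma's moderated test). Between the doses ILMN_2849680 differed by −0.86 ± 0.51, and ILMN_2435206 is described below. Tspo2, an erythroid relative of the mitochondrial translocator protein, read log2 8.58 and 9.27 in saline, 10.29 and 9.99 at 5 µmol/kg and 8.46 and 8.71 at 10 µmol/kg. Both arrays at 5 µmol/kg were above all 4 others, with differences of 1.21 ± 0.31 from saline and −1.56 ± 0.31 between the doses (adjusted p = 0.525 and 0.981). Tspo itself differed by 0.67 ± 0.23 at 5 µmol/kg. Slc25a38, the mitochondrial carrier that supplies glycine to Alas2 and the brightest of the list with Tmem14c, differed by 0.08 ± 0.32.

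One Tmem14c probe was the only feature of the array to pass when every probe was tested, and it did so between the doses (1 of 18960, or 0.00527%). ILMN_2435206 read signals of 1209 and 2666 in saline, 4190 and 2045 at 5 µmol/kg and −5.49 and 0.802 at 10 µmol/kg. It was detected on all 4 arrays of saline and 5 µmol/kg and on neither array at 10 µmol/kg. The probe was at least 111-fold lower at 10 than at 5 µmol/kg (adjusted p = 0.0327 in limma's moderated test) and at least 68.3-fold lower than in saline (adjusted p = 0.0644). For this bound the undetected signals were raised to the detection limits of their arrays. The 2 other Tmem14c probes did not share this loss. ILMN_2472110 read 1139 and 981 at 10 µmol/kg, and ILMN_2849680 read 1069 and 1047 there, against 658 and 2128 in saline and 2139 and 1736 at 5 µmol/kg. The cause of the loss on 1 probe of 3 was not tested.

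Of 11 genes of iron uptake and mitochondrial iron, 1 had an unadjusted p under 0.05 at 5 µmol/kg, the iron chaperone Pcbp1 (0.89 ± 0.26), and 0 in the other comparisons. At 5 µmol/kg 9.27% of all genes and probes had such a p. The transferrin receptor Tfrc and mitoferrin, Slc25a37, the brightest of this list, differed by −0.18 ± 0.33 and −0.43 ± 0.42 at 5 µmol/kg. Both were highest on array 1 at 10 µmol/kg, at log2 12.56 and 13.58, and lowest on array 2, at 11.64 and 12.27, like Alas2. Of 8 measured genes of iron-sulphur cluster assembly, 1 had an unadjusted p under 0.05 at 5 µmol/kg, against 9.27% of all genes and probes. It was the cysteine desulphurase Nfs1 (0.74 ± 0.27), and 0 had one at 10 µmol/kg or between the doses. Glrx5 and Iscu, the brightest, differed by 0.13 ± 0.33 and −0.07 ± 0.27. Of 10 regulators of the pathway, 0 had an unadjusted p under 0.05 in any comparison, with Klf1 at 0.28 ± 0.45 and Nfe2 at 0.20 ± 0.33 at 5 µmol/kg. None of the genes of these lists passed after adjustment in limma's moderated test, in which Pcbp1 and Nfs1 each had adjusted p = 0.525 at 5 µmol/kg.

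Among 17 measured genes of globin and the red cell membrane, 4 had an unadjusted p under 0.05 at 5 µmol/kg, all higher, and 1 at 10 µmol/kg, and their medians were 0.09 and 0.01. Over all genes and probes 9.27% and 1.63% had such a p. At 5 µmol/kg 9 of the 17 were above saline and 8 below, with a lowest difference of −0.49. The 4 were the ammonium channel Rhag (1.60 ± 0.35), the carbonic anhydrases Car1 (1.82 ± 0.62) and Car2 (1.15 ± 0.33), and Hemgn (1.25 ± 0.34), an erythroid nuclear protein. Rhag read log2 7.80 and 7.90 in saline, 9.90 and 9.0 at 5 µmol/kg and 8.76 and 9.14 at 10 µmol/kg, with every cadmium array above both saline arrays, as for Fech. The globin Hbb-bs and the anion exchanger Slc4a1, near the top of the scale, differed by −0.06 ± 0.22 and −0.07 ± 0.23. The 4 genes of haem breakdown, with Blvrb at 0.34 ± 0.37 and Blvra at 0.39 ± 0.42 the brightest, had a median of 0.30 at 5 µmol/kg and 0.07 at 10 µmol/kg, and 0 had an unadjusted p under 0.05. None passed after adjustment.

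Lists for dividing cells and for other cell types are given beside these values. All 14 measured cell division genes were above saline at 5 µmol/kg, with a median of 0.53, and 3 had an unadjusted p under 0.05, among them Aurkb (1.22 ± 0.34) and Cdk1 (1.05 ± 0.31). Over all genes and probes 48.7% were above saline and 9.27% had such a p. At 10 µmol/kg 9 of the 14 were above saline, against 46.9% of all, with a median of 0.08. All 14 were lower at 10 than at 5 µmol/kg, with a median of −0.41, where 50.8% of all genes and probes were higher. The mean log2 level of the cell division genes was 8.60 and 9.54 in saline, 9.83 and 9.40 at 5 µmol/kg and 9.33 and 8.93 at 10 µmol/kg, lowest on saline array 1, as for Fech. Saline array 2, which carried acinar signal, lay between the 2 arrays at 5 µmol/kg. The part of the cell division genes in the Fech and Cpox values was not tested. All 5 B cell markers were below saline at both doses, with medians of −0.56 and −0.47, where 48.7% and 46.9% of all genes and probes were above it. Of the 5, 2 were lower with an unadjusted p under 0.05 at 5 µmol/kg and 1 at 10 µmol/kg, against 4.69% and 0.634% of all. The mean levels of the B cell markers were 9.05 and 8.67 in saline, 8.03 and 8.48 at 5 µmol/kg and 8.47 and 8.30 at 10 µmol/kg. Macrophage markers had medians of 0.42 and 0.72 and T cell markers 0.06 and 0.09. At 10 µmol/kg 4 of the 7 macrophage markers were higher with an unadjusted p under 0.05, against 0.996% of all genes and probes. Marco was lower with such a p (−0.84 ± 0.35), against 0.634% of all. Neutrophil markers had medians of 0.07 and 0.16 and megakaryocyte markers 0.13 and 0.43. In each of these lists 1 of the 7 was higher with an unadjusted p under 0.05 at either dose, against 4.58% and 0.996% of all. These were Elane (1.36 ± 0.38 and 1.54 ± 0.38) and Gp9 (0.78 ± 0.23 and 0.69 ± 0.23). All 7 megakaryocyte markers were above saline at 10 µmol/kg, against 46.9% of all genes and probes. The acinar markers had medians of 3.43 and −0.15.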

How the data were processed

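The total RNA of each spleen sample had been labelled with biotin and hybridised to an Illumina bead array, per the labels' protocols. The authors deposited an intensity per probe and array, the mean bead signal on a linear scale, and a detection p-value per probe and array. The deposited intensity table is described as not normalized, but its lowest value was −20.1 and, ranked, the arrays were within 0.243 of each other at every rank, so the values had been background-subtracted and quantile-normalized. The software used is not given in these sources. A second deposited table held the same intensities for its 45279 probes and was not used further.

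Signals were processed with neqc of limma 3.58.1 in R 4.3.3 (offset 16, log2), which was kept although the signals were already normalized. The signal of a probe is the deposited value, and its log2 level is the processed one. A probe had to be detected (p-value under 0.05) on 2 or more arrays, which 18960 were, and the brightest stood for each gene, which left 10823 named genes and 2736 unnamed probes. One limma model was fitted to all 6 arrays (3 residual and 3.639 prior degrees of freedom), with two-sided tests adjusted by Benjamini-Hochberg over the 13559. Gene symbols came from the platform annotation and a RefSeq table. The tests were tried on simulated data. The named genes were the 7 enzymes, Alas1, in each list the 2 brightest genes and those whose unadjusted p was under 0.05 in any comparison (not all are printed for marker lists), and the 5 genes most like the mean of the enzymes. Enzymes, lists and alternatives were chosen with earlier results of these data known. Replicate numbers recur in each group, but correlations of the deviations of same-numbered arrays were −0.28, 0.58 and −0.11, so the numbers were not taken as pairs. The number of arrays limits the precision.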

Additional observations from a re-analysis of the deposited data

How the results depend on the processing

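Each comparison was refitted with other background corrections, offsets, filters, probe choices, arrays and variance models, which gave 354 values for the 7 enzymes. Of these, 319 kept their direction and side of the threshold, 34 had the opposite sign and 1, Fech at 5 µmol/kg among the 4 arrays with acinar signal, passed. Many refits, such as other variance models or leaving out an array of the group not compared, cannot change a difference. No enzyme passed in the main fit, so none could cease to pass. The count of 319 is therefore no measure of stability. The number of genes passing stayed at 0 except for 287 at 5 µmol/kg and 306 at 10 µmol/kg against saline among those 4 arrays, where 1 saline array and 1 array at 10 µmol/kg were assumed to vary like the pair at 5 µmol/kg, and for 1 between the doses with every probe tested; with the replicate block it was 0 and no call changed. Cpox was not measured when detection was required on all arrays. Opposite signs at 5 µmol/kg were Ppox 0.37 with the mean of its probes, Alas2 0.038 and Alad 0.11 with the acinar covariate, and Uros −0.24 and Urod −0.19 among the 4 arrays. At 10 µmol/kg they were Uros 0.19 and Ppox 0.13 with the mean of probes, and Alad −0.41 and Urod −0.53 among the 4 arrays. Between the doses they were Ppox −0.24 with the mean of probes, Alas2 −0.076, Alad −0.062 and Ppox −0.20 with the covariate, and Alas2 −0.40, Alad −0.33 and Ppox −0.74 among the 4 arrays. Leaving out 1 array, differences at 5 µmol/kg ran from −0.091 to 0.018 for Alad, −0.24 to 0.87 for Uros and −0.19 to 0.58 for Urod. At 10 µmol/kg they ran from −0.51 to 0.45 for Alas2, −0.37 to 0.47 for Alad, −0.77 to 0.34 for Uros, −0.31 to 0.45 for Urod, −0.60 to 0.38 for Cpox and −1.02 to 0.53 for Ppox. Between the doses they ran from −0.40 to 0.56 for Alas2, −0.33 to 0.51 for Alad, −0.35 to 0.10 for Urod and −0.74 to 0.81 for Ppox. The genes passing numbered 0 in each fit without 1 array, and 0 at an adjusted p under 0.10. The causes were not tested. Cpox, near the detection limit, differed by 0.86 in place of 1.48 at 5 µmol/kg with an offset of 50.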
